A study of Homo sapiens with 24 samples.

Results

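The circadian clock genes described here were 10: CLOCK, PER1, PER2, PER3, CRY1, CRY2, BHLHE40, BHLHE41, NR1D1 and DBP. They were chosen by name, together with every called peak of the SWI/SNF chromatin remodelling complex that the deposited annotation gives to them as the nearest transcription start site (TSS). This gave 65 of 80150 peaks, of which 33 of 51504 were BRG1 peaks, 26 of 22157 were BRM peaks and 6 of 6489 were SNF5 peaks. The BRM promoter peak of BHLHE40 that met no other list was a reason for choosing the genes, so the values of that peak, and the counts of peaks per gene, are given as a description with no test.

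The peaks come from chromatin immunoprecipitation and sequencing in the RWPE1 cell line, derived from benign epithelium of the human prostate, in which the long noncoding RNA SCHLAP1 was expressed from a lentivirus under selection with 2.5 ug/mL blasticidin. BRG1 and BRM, the alternative ATPase motors of SWI/SNF, and SNF5, a core subunit, were each profiled in 2 samples of SCHLAP1 cells on chromatin cut with micrococcal nuclease (MNase), beside 2 MNase inputs. The remaining samples, H3K27ac, H3K4me1, H3K4me3 and sonicated inputs of SCHLAP1 cells and of control LACZ cells, were not analysed here. The series has 24 samples in 12 groups of 2, and the analysed data hold 1 list of peaks for each subunit, so no value below has a replicate spread. The lists give positions and widths without read counts, so the depth is unknown, and a missing peak is not evidence that a subunit was absent. No SWI/SNF subunit was profiled in LACZ cells, so nothing below measures an effect of SCHLAP1. Of the markers KRT5, KRT14, TP63 and ITGA6 of basal prostate epithelium, 3 of 4 were named by a BRG1 peak and 3 of 4 by a BRM peak, while the luminal genes KLK3 and KLK2 were named by no peak. Naming misses peaks by position: 14 BRG1 peaks lay in or within 1 kb of ITGA6, which no BRG1 peak named. Likewise 2 BRM peaks lay in or within 1 kb of TP63, which no BRM peak named. The blood genes PTPRC and CD3E were each named by 1 BRG1 peak outside promoters, and by position 4 BRG1 peaks lay in or within 1 kb of PTPRC. No peak was named for the liver genes ALB, APOA1 and TTR, although 1 BRG1 peak named for another gene lay in or within 1 kb of APOA1. Occupancy is not expression.

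In the mammalian clock, CLOCK pairs with BMAL1 and activates genes through E-boxes, among them the PER and CRY genes, whose proteins then repress CLOCK and BMAL1. A further loop runs through REV-ERB alpha, the product of NR1D1, which represses BMAL1. BHLHE40 and BHLHE41 (DEC1 and DEC2) are repressors that bind E-boxes themselves, and DBP activates output genes through D-boxes.

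All 10 clock genes were named by a BRG1 peak and by a BRM peak, and SNF5 peaks named 5 of them. For 19970 protein-coding genes the share named was 63.6% in the BRG1 list, 49.7% in the BRM list, 47.2% in both of these and 19.7% in the SNF5 list. Every clock gene also had a promoter peak of BRG1 and of BRM, within 1000 bp of a TSS in the deposited annotation, against 55.7% and 45.8% of protein-coding genes. SNF5 promoter peaks lay at BHLHE41, CRY1, NR1D1 and DBP, against 18.1% of protein-coding genes, and the SNF5 peak of PER1 was distal. The clock genes with no SNF5 peak named for them were BHLHE40, PER2, PER3, CRY2 and CLOCK. Since the lists were known when the genes were chosen, these shares are set side by side without a test.

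**Figure D1:**
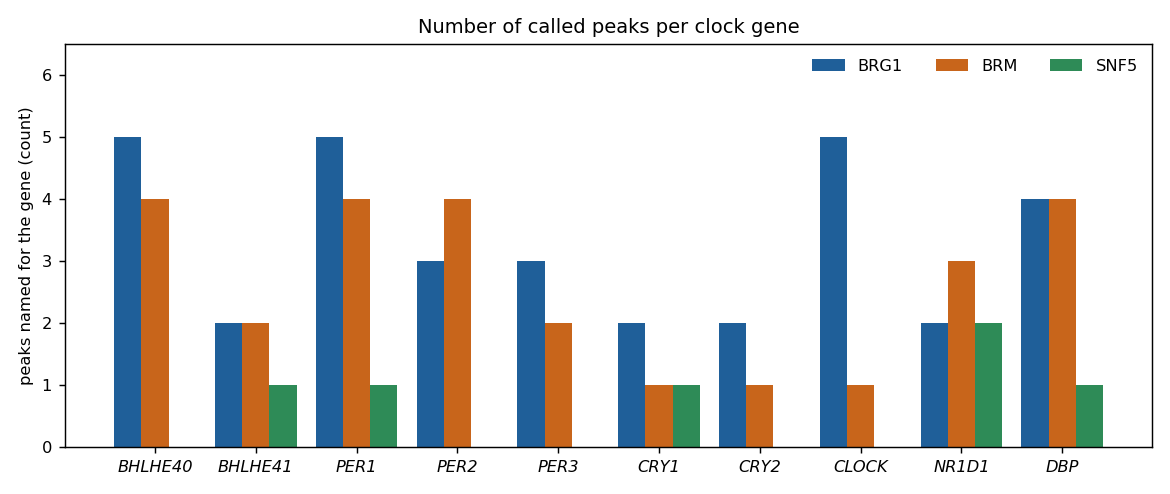
Bars give the number of called peaks (count, vertical axis) named for each of the 10 clock genes in the BRG1, BRM and SNF5 lists. Every gene has BRG1 and BRM peaks, and SNF5 peaks are present at BHLHE41, PER1, CRY1, NR1D1 and DBP.

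PER1 had the most peaks, with 5 BRG1, 4 BRM and 1 SNF5 peak, and CRY2 the fewest, with 2 BRG1 and 1 BRM peak. The PER1 counts include the BRG1, BRM and SNF5 peaks of a site beyond the end of the gene that holds tRNA genes. BHLHE40 and DBP had 9 peaks each, so the rank of PER1, and its likeness to other genes by count, depend on that site. At least as many peaks as PER1 were named for 5.27% of protein-coding genes, and at least as many as CRY2 for 39.6%. By the 3 counts of peaks, 13 protein-coding genes had the same values as PER1, itself included, of which FGF18, GM2A and GRID1 come first by alphabet. BRM peaks outnumbered BRG1 peaks at PER2 (4 against 3) and at NR1D1 (3 against 2). Over the peaks named for each gene, the summed BRM width was nevertheless below the summed BRG1 width at each of the 10 genes. The whole lists have the same direction, with 15.3 Mb covered by BRM and 44.8 Mb by BRG1, against 18239 and 34744 bp at the clock genes.

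The clock-gene peaks were mostly shared between the ATPases. Of the 33 BRG1 peaks, 22 (66.7%) met a BRM peak by at least 1 bp, against 35.7% of all BRG1 peaks, and 5 (15.2%) met an SNF5 peak, against 9.58%. Among the 26 BRM peaks, 25 overlapped BRG1. The remaining one was the BHLHE40 promoter peak, and in the whole BRM list the share without BRG1 overlap was 7.82%. All 6 SNF5 peaks met a BRG1 peak, against 96.1% in the whole list, and 5 met a BRM peak, against 91.9%.

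The BRG1 peaks of the clock genes had a median width of 904 bp, against 667 bp in the whole list, and BRM peaks 604 bp against 547 bp. For SNF5 the median was 181 bp at the clock genes and 212 bp in the whole list. Wide BRG1 peaks meet other peaks more often everywhere: over all genes, 13.2% of BRG1 peaks of up to 667 bp and 95.1% of those over 2000 bp met a BRM peak. Among the clock-gene peaks these counts were 6 of 13 and 4 of 4. For the widths in between, they were 3 of 6 up to 1000 bp, where 36.1% of all BRG1 peaks met BRM, and 9 of 10 from there to 2000 bp, where 69.0% did. By place, 16 of the 33 BRG1 peaks (48.5%) were promoter peaks, against 37.3% in the whole list, and 15 of 26 BRM peaks (57.7%), against 62.8%.

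**Figure D2:**
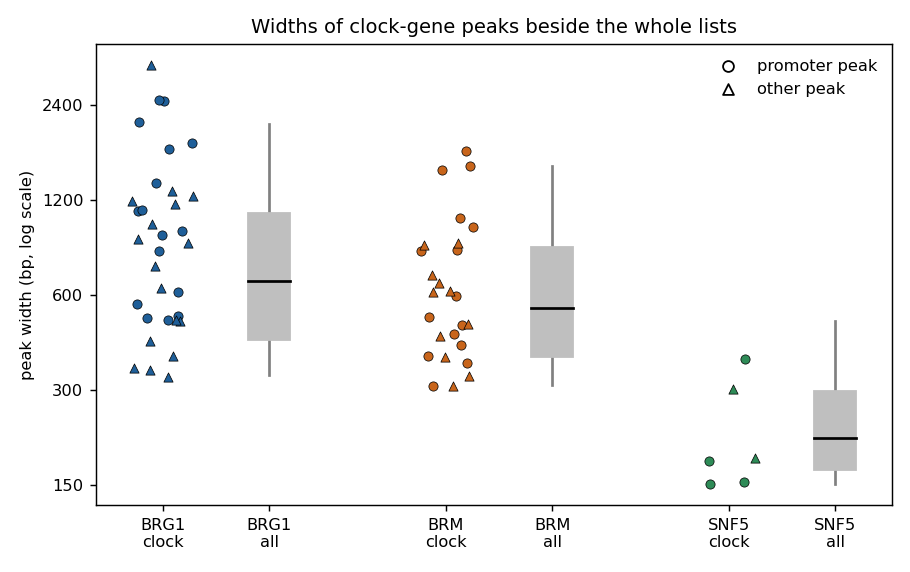
Width of each peak named for a clock gene (bp, log scale; circles, promoter peaks; triangles, other peaks) beside the whole list of the same subunit, where the black line is the median, the grey box spans the 25th to 75th percentile and the grey line the 5th to 95th. The BRG1 peaks of PER2 (3211 bp), NR1D1 (2494 bp), CLOCK (2466 bp) and CRY1 (2119 bp) lie above the 95th percentile of all BRG1 peaks (2091 bp).

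Positions at each gene are given below in hg38 and relative to the RefSeq gene start (the first of them, for the 3 genes with more than 1), with negative values upstream. The deposited annotation and RefSeq do not place every start alike, so a peak annotated as promoter can lie several kb from the RefSeq start. At least 1 RefSeq start was covered by a BRG1 peak at 7 of the 10 clock genes, by a BRM peak at 9 and by an SNF5 peak at 2, counting peaks named for any gene. At CRY1 the SNF5 peak reached the start only with the base at its edge. Of the 15812 protein-coding genes with a RefSeq start in the promoter table, 53.6%, 41.9% and 8.99% had one covered by BRG1, BRM and SNF5.

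**Figure D3:**
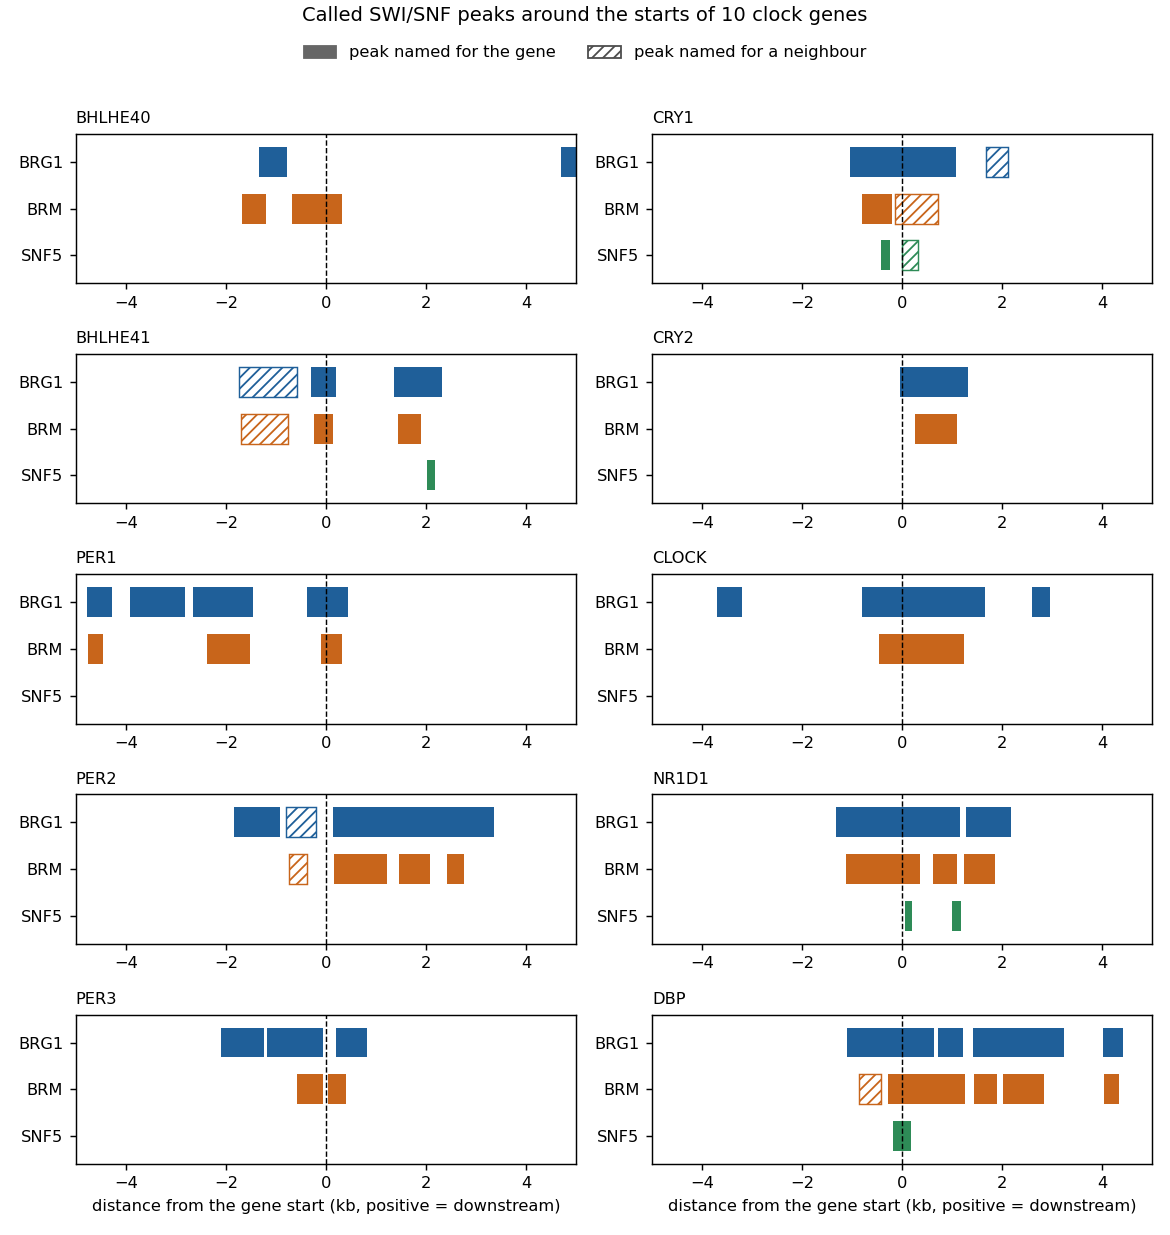
Called peaks of the 3 lists within 5 kb of the RefSeq start of each clock gene (dashed line; distance in kb, positive downstream), with filled boxes for peaks named for the gene and hatched boxes for those in or within 1 kb of the gene but named for another. Peaks farther away are not drawn. BRG1 boxes lie on the start at CRY1, CRY2, CLOCK, NR1D1, DBP, PER1 and BHLHE41 and beside it at BHLHE40, PER2 and PER3.

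CLOCK, the activator, had a single broad site over its start that both ATPases shared. The BRG1 peak of 2466 bp (chr4:55545257-55547722) reached from -813 to 1652 bp and stood at the 97.2th percentile of BRG1 widths. The BRM peak of 1712 bp (chr4:55545671-55547382) lay wholly inside it and stood at the 96.6th percentile of BRM widths. The RefSeq gene LOC124900704 also starts inside both. The 4 other BRG1 peaks of CLOCK were 353 to 742 bp wide, and 3 of them were intronic, the farthest 88540 bp into the gene. None of these 4 met a BRM or SNF5 peak, and the nearest SNF5 peak lay 148936 bp from the BRG1 peak at the start.

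Among the repressors of CLOCK, the period gene PER1 had a string of BRG1 sites upstream and over its start. The BRG1 peak at the start (chr17:8151964-8152793) was 830 bp wide, and the BRM peak inside it (chr17:8152088-8152504) 417 bp. Upstream, BRG1 peaks of 1190, 1108 and 502 bp were centred at -2058, -3372 and -4534 bp, of which the first was annotated as intron and the other two as promoter. BRM peaks of 863 and 310 bp lay inside the first and the last of these, and the 1108 bp peak met none, with a gap of 442 bp to the nearest BRM peak.

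The only SNF5 peak of PER1 lay beyond the end of the gene, 13462 bp downstream of the start, where all 3 lists overlapped. There the BRG1 peak was 1235 bp wide (chr17:8138730-8139964), the BRM peak 877 bp and the SNF5 peak 303 bp (chr17:8138791-8139093). RefSeq places the tRNA genes TRS-CGA1-1 and TRT-AGT5-1 inside the BRG1 and BRM peaks, and the SNF5 peak holds TRS-CGA1-1. The annotation names this site for PER1 as the nearest TSS, so the SNF5 count of PER1, and its rank by number of peaks, rest on a site that holds tRNA genes.

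PER2, which encodes another period repressor, carried the widest clock-gene peak. Its BRG1 peak of 3211 bp (chr2:238285262-238288472) was at the 99.1th percentile of BRG1 widths, began 138 bp downstream of the RefSeq start and was annotated as intron. Inside it lay 3 BRM peaks, of 1049, 614 and 332 bp. Upstream of the start, a BRG1 peak of 932 bp annotated as a PER2 promoter peak (chr2:238289522-238290453) met no BRM peak, although one lay 179 bp away. Between these, a BRG1 peak of 609 bp and a BRM peak of 348 bp were named for the noncoding gene AC012485.3. No peak of any list covered the PER2 start in the RefSeq promoter table. The RefSeq gene itself reaches farther upstream, to position 238300065, and no peak covered that end either. A further pair, of 1010 bp for BRG1 and 694 bp for BRM, lay 21012 and 21032 bp into the gene.

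PER3, the third period gene, had smaller peaks. Its BRG1 peaks of 880, 1114 and 613 bp flanked its pair of RefSeq starts without covering either. BRM peaks of 513 and 367 bp overlapped the last 2 of these, and the 367 bp peak (chr1:7784322-7784688) covered the second start. A RefSeq start under BRM and none under BRG1 was found at 2 of the 10 clock genes, PER3 and BHLHE40, and at 2.28% of protein-coding genes. At BHLHE40 that BRM peak was a reason for choosing the genes, so the count is not read as a finding beside this share. At PER3 the BRM peak in question shared 192 bp with the BRG1 peak just downstream.

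The cryptochrome genes CRY1 and CRY2, partners of the period repressors, each had BRG1 over the start. At CRY1 the BRG1 peak was 2119 bp wide (chr12:107092475-107094593), centred 15 bp from the start, and held BRM and SNF5 peaks both upstream of the start and over it. Upstream of the start lay a BRM peak of 595 bp and an SNF5 peak of 179 bp named for CRY1. Over the start lay a BRM peak of 853 bp that the annotation gives to AC078929.1 instead. An SNF5 peak of 320 bp (chr12:107093230-107093549), also given to AC078929.1, reached the start only with the base at its edge and otherwise lay downstream. At CRY2 the BRG1 peak was 1361 bp (chr11:45847080-45848440) and the BRM peak inside it 835 bp, and the nearest SNF5 peak was 74701 bp away. Each gene had 1 more, intronic BRG1 peak, of 331 bp at CRY1 and 631 bp at CRY2, and neither met another list.

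At BHLHE40 the RefSeq start was covered by a BRM promoter peak that met no BRG1 peak, which held for no other clock gene. It was a reason for choosing the genes, so this difference was known beforehand and is not a finding. This BRM peak was 985 bp wide (chr3:4978763-4979747), reached from -674 to 310 bp and stood at the 81.3th percentile of BRM widths. The BRG1 peak annotated as promoter (chr3:4978101-4978661) was 561 bp wide, reached from -1336 to -776 bp and ended 101 bp before the BRM peak began. A second BRM peak of 487 bp (chr3:4977749-4978235) overlapped the far side of that BRG1 peak by 135 bp. Near the start the lists therefore ran in the order BRM, BRG1, BRM toward the gene.

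**Figure D4:**
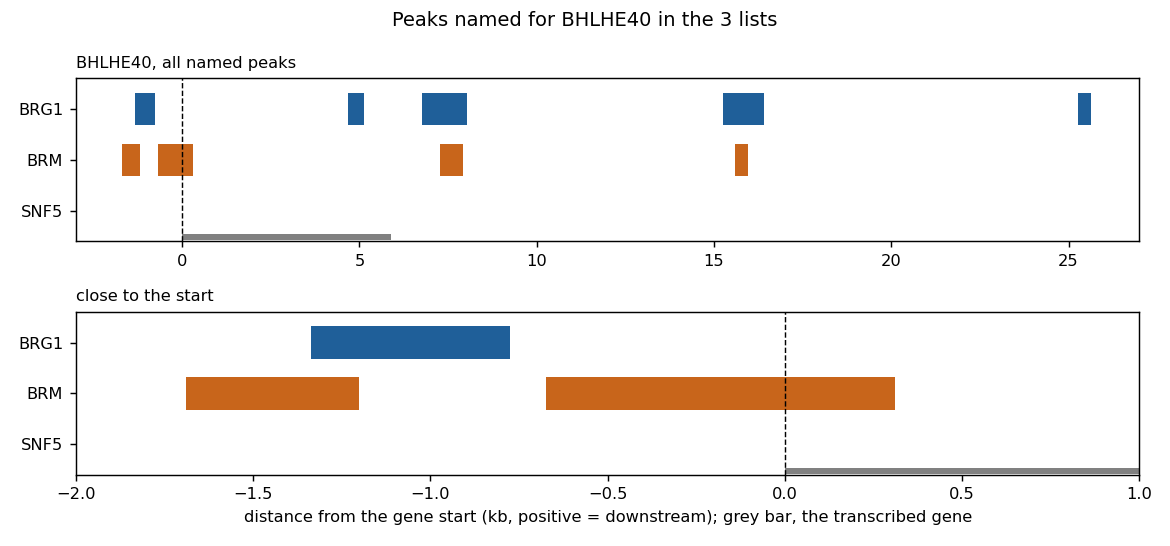
Peaks named for BHLHE40 against the distance from its RefSeq start (kb, dashed line at the start, grey bar for the transcribed gene), over all named peaks in the upper panel and near the start in the lower. The BRM peak over the start and the BRG1 peak upstream are 101 bp apart, while the 2 BRM peaks downstream of the gene lie inside BRG1 peaks.

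Away from the start, BRG1 and BRM coincided at BHLHE40. Downstream of the gene, BRG1 peaks of 1282 and 1165 bp, centred at 7392 and 15834 bp, held BRM peaks of 655 and 383 bp. BRG1 peaks of 430 bp, in an exon, and of 347 bp, at 25453 bp, met neither other list. Of the 2510 bp in BRM peaks of BHLHE40, 1173 bp (46.7%) lay in BRG1 peaks. The promoter peak that was a reason for choosing the genes made up 985 bp of the rest, so this share is not a separate finding.

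Of all promoter BRM peaks named for protein-coding genes, 563 met neither BRG1 nor SNF5, and that of BHLHE40 was the widest, at 985 bp against a median of 372 bp. Next in width came PPFIA3 (926 bp), KRT19, a keratin gene of simple epithelium (903 bp), SH3RF2 (874 bp), CABLES2 (859 bp) and ZNF783 (817 bp). Their gaps to the nearest BRG1 peak were 154, 1389, 368, 6314 and 113454 bp. A gap of 101 bp or less was found for 67 (11.9%) of the 563, and the median gap was 1088 bp. Within 500 bp, 38.2% of them had a BRG1 peak. The BHLHE40 peak was a reason for choosing the genes, so its rank by width and its gap are a description and not a finding. It also lies in a stretch of chromosome 3 with few listed BRG1 peaks, described next.

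No SNF5 peak was listed near BHLHE40, and this held for the surrounding chromosome. The first SNF5 peak of chromosome 3 began at position 53347572, so the nearest one lay 48367824 bp from the BRM promoter peak. The first 53.3 Mb held 315 of the 2225 BRG1 peaks and 80 of the 738 BRM peaks of the chromosome. BRG1 had 5.90 peaks per Mb there, against 13.2 over the rest of the chromosome, where SNF5 had 1.35 per Mb. Within 5 Mb of BHLHE40 there were 27 BRG1, 11 BRM and 0 SNF5 peaks. NR1D2, the paralog of NR1D1, lies in the same stretch (chr3:23945286-23980617) and had 2 BRG1 peaks and no BRM or SNF5 peak. The lists alone do not tell a stretch with few sites from one whose peaks were left out of them. No lack of SNF5 at BHLHE40 is therefore read from it, and no lack of BRG1 over the BHLHE40 start.

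**Figure D5:**
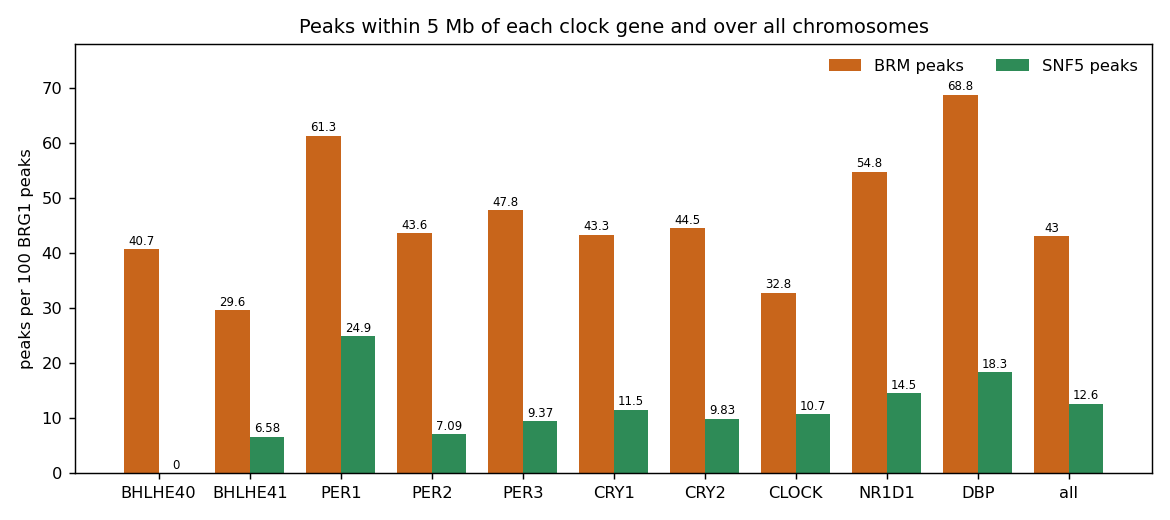
Number of BRM and SNF5 peaks per 100 BRG1 peaks (vertical axis) within 5 Mb of each clock gene, with all chromosomes at the right. SNF5 is at 0 around BHLHE40 and between 6.58 and 24.9 around the other genes, against 12.6 over all chromosomes.

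Around the other clock genes SNF5 peaks were present, so that 4 genes lacked a named SNF5 peak with SNF5 sites in the neighbourhood. Within 5 Mb there were 20 SNF5 peaks around PER2, 37 around PER3, 17 around CRY2 and 14 around CLOCK. Per 100 BRG1 peaks this was 7.09, 9.37, 9.83 and 10.7. PER1, DBP and NR1D1 lay in the regions with the most SNF5 peaks, at 24.9, 18.3 and 14.5 per 100 BRG1 peaks. BHLHE41, which had an SNF5 peak, lay in a region with 6.58. Regional density was not tested against the presence of a peak.

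BHLHE41, the closest relative of BHLHE40, had peaks of both ATPases over its start. A BRG1 peak of 507 bp (chr12:26124837-26125343) covered it and wholly contained a BRM peak of 384 bp. Downstream within the gene, a BRG1 peak of 957 bp held a BRM peak of 452 bp and an SNF5 peak of 151 bp (chr12:26122868-26123018). The SNF5 and BRM peaks inside it did not touch each other and were 123 bp apart. This was the only clock-gene SNF5 peak that met no BRM peak, and its width equals that of the narrowest SNF5 peaks in the list. Another BRG1 and BRM pair, of 1163 and 953 bp, was centred at -1167 and -1229 bp and was named for AC022509.3.

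The promoter sequences of BHLHE40 and BHLHE41 are shown with the peaks that lie over them, and sequence beyond them was not searched. The RefSeq table (GRCh38.p14, the same assembly as hg38) gives the 250 bases before each start. These are printed 5′ to 3′ on the strand of the gene, with capitals for the palindromic E-box CACGTG, the element through which CLOCK and the DEC proteins act. The BHLHE40 sequence is chr3:4979187-4979436, plus strand, and that of BHLHE41 is chr12:26125038-26125287, minus strand.
BHLHE40: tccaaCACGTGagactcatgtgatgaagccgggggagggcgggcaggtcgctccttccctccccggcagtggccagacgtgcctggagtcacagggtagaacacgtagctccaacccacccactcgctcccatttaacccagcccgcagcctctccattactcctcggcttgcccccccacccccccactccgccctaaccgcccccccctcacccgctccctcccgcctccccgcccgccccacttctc
BHLHE41: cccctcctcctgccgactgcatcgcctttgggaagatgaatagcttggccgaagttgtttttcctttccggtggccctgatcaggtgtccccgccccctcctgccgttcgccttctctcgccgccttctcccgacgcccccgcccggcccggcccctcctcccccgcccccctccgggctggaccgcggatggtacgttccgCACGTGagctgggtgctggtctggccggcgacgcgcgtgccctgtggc
In BHLHE40 the E-box begins 245 bases before the start, inside the BRM peak and 530 bp from the nearest BRG1 peak, and all 250 bases lie in the BRM peak and 0 in a BRG1 peak. That BRM peak was a reason for choosing the genes, so an E-box outside BRG1 there is not a separate finding. In BHLHE41 the E-box begins 48 bases before the start, inside both a BRG1 and a BRM peak.

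The period promoters are shown because the peaks cut through them. Capitals mark the E-box CACGTG and the reverse complement of AGGTCA, the core of the element that REV-ERB and ROR receptors bind, in PER1 (chr17:8152405-8152654, minus strand). They mark the E-box variant CACGTT in PER2 (chr2:238288611-238288860, minus strand) and the D-box letters TTATGTAA in PER3 (first start, chr1:7784041-7784290, plus strand).
PER1: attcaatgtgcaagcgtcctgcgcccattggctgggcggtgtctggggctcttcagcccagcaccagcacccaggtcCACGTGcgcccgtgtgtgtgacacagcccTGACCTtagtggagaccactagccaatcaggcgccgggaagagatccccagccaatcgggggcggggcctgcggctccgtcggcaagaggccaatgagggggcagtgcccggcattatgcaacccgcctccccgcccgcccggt
PER2: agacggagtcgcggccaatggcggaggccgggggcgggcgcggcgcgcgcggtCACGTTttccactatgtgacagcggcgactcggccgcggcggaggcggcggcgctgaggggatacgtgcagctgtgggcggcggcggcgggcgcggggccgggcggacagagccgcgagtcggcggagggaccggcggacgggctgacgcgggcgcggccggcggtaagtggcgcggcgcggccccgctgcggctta
PER3: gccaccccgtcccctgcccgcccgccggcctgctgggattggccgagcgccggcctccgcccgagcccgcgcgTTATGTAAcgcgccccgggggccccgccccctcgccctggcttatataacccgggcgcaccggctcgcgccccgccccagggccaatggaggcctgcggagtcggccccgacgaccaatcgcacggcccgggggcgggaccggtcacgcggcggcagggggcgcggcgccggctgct
All 250 bases of PER1 lay in the BRG1 peak and the 100 nearest the start in the BRM peak, so that the E-box was under BRG1 and 67 bp outside BRM. In PER2 the E-box variant sat at the very edge of the BRG1 peak named for AC012485.3, and 54 bases of the window lay in BRG1 and 0 in BRM peaks. The D-box of PER3 lay inside a BRG1 and a BRM peak.

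Over the 13 RefSeq promoter windows of the 10 clock genes, CACGTG was present in 3 and CACGTT in 5, searched on both strands. Either was found in 8 windows, 1 for each of 8 genes, with PER3 and DBP the exceptions, against 11.7% of 22155 windows of protein-coding genes. CACGTG alone was present in 7.37% and CACGTT in 4.68% of those. AGGTCA was present at PER1 and in both windows of CRY2, against 10.5%, and TTATGTAA at PER3 alone, against 0.636%. The AP-1 letters TGANTCA and the cAMP response element TGACGTCA were in none of the 13, against 5.36% and 2.01%. Of the 8 windows with CACGTG or CACGTT, the motif touched a BRG1 peak in 7, at PER2 only at the edge, and BHLHE40 was the exception. The whole BHLHE40 window lies in the BRM peak that was a reason for choosing the genes, so this exception is not a separate finding. At PER1, PER2 and CRY2 the motif lay outside BRM peaks. How often such motifs lie in peaks over all protein-coding genes is not given here. Every clock gene has a BRG1 promoter peak, so the 7 of 8 are not read as a finding about the motif. A match of letters is a description and does not show that a factor binds.

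NR1D1, which encodes REV-ERB alpha, was the clock gene with the most SNF5 peaks named for it, although CRY1 also had 2 when the peak named for AC078929.1 is counted. Its BRG1 promoter peak of 2494 bp (chr17:40099428-40101921) was at the 97.3th percentile. It held 2 BRM peaks, of 1489 and 482 bp, and met 2 SNF5 peaks, of 154 bp (chr17:40100390-40100543) and 183 bp (chr17:40099414-40099596). The wider BRM peak covered the start and stood at the 94.4th percentile of BRM widths. The SNF5 peak of 154 bp lay 46 to 199 bp downstream of the start, inside that BRM peak, and the other was annotated as intron and centred 1084 bp into the gene. A second BRG1 peak of 904 bp and a BRM peak of 620 bp overlapped farther in, and the nearest SNF5 peak to the latter was 65 bp away.

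DBP, the D-box activator, had BRG1 and BRM over its start and downstream of it. It was 1 of 2 clock genes with SNF5 on the start, the other being CRY1, where the peak only reached the start with its edge. Its BRG1 peaks were 1746, 515, 1824 and 384 bp wide, and 3 of the 4 were annotated as promoter. The BRM peak over the start was 1543 bp (chr19:48636121-48637663), at the 95.1th percentile, and bridged the gap between the first 2 BRG1 peaks. BRM peaks of 446 and 825 bp lay inside the third and one of 310 bp inside the fourth. The SNF5 peak of 377 bp (chr19:48637195-48637571) was centred 4 bp from the start and was the widest clock-gene SNF5 peak, at the 87.4th percentile. Upstream, a BRM peak of 441 bp inside the first BRG1 peak was named for the pseudogene SEC1P.

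In all, 9 peaks in or within 1 kb of a clock gene were named for a neighbour, at BHLHE41, PER2, CRY1 and DBP. One of them met no BRG1 peak, a BRM peak of 495 bp in an exon that the annotation gives to SPHK2, 8449 bp from the start of DBP.

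A list of 22 further clock genes was also counted. BRG1 peaks named 19 of them, BRM peaks 16 and SNF5 peaks 10, against 63.6%, 49.7% and 19.7% of protein-coding genes. All 3 lists named 9 of them, against 17.9%. GSK3B is not among these 9, although a BRM peak named for another gene covered its start. The widest BRG1 peaks were at FBXW11, a subunit of a ubiquitin ligase that targets PER proteins (4282 bp, promoter), NFIL3, a D-box repressor (3010 bp, intron), SIRT1, a deacetylase (2548 bp, promoter), and BMAL1, the partner of CLOCK (2363 bp, promoter). BMAL1 had 8 BRG1, 5 BRM and 1 SNF5 peak, the last of 151 bp. SNF5 peaks were also named for NFIL3, CIART, CSNK1D, BTRC, FBXW11, GSK3B, TIMELESS, TIPIN and SIRT1. CSNK1D, which encodes a kinase of PER proteins, had 5 BRM peaks, of which 2 met no BRG1 peak.

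TEF, a D-box activator related to DBP, had 1 BRM peak of 326 bp and no BRG1 peak, and that BRM peak met no BRG1 peak. NR1D2, RORB, HLF and CSNK1E were named by BRG1 peaks alone, although by position 1 BRM peak lay in or within 1 kb of RORB. NR1D2 lies in the stretch of chromosome 3 where peaks may have been left out of the lists. These 5 genes were picked after their values were seen.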

How the data were processed

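RWPE1 cells were crosslinked for 30 min with 0.3% formaldehyde, and 125 mM glycine ended the reaction, per the labels' protocols. The submitters' processing notes list Bowtie2, SAMtools, MACS2, deepTools 2.5.2 and the build hg38, but no role for any tool. How the input, a threshold or a filter was applied, and whether replicates were pooled, is not given in the sources used here. Widths and distances in the deposited lists are in bp, per the file headers, with positions counted from 1 and no score or other enrichment. The largest distance of a peak annotated as promoter was 998 bp. A width depends on the peak caller and on the depth, so widths are not amounts of protein.

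Members and lists of genes were chosen with earlier results of these data known. Overlaps needed 1 bp and were checked with bedtools 2.31.1 and on simulated data. RefSeq (GRCh38.p14) held the gene named, under its symbol or an unambiguous synonym, for 81.3% of peaks in the BRG1 list, 86.9% in the BRM list and 90.4% in the SNF5 list. No test was run, since each subunit has 1 list and the members were chosen from it. Named were all 10 clock genes, of the other clock genes the 4 with the widest BRG1 peak and those with no peak or an SNF5 peak, and the genes most like BHLHE40 and PER1; a few genes of these lists and of the marker lists are not reported here. Python 3.11.15, pandas 2.3.3, numpy 2.4.6 and matplotlib 3.10.9 were used.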

Additional observations from a re-analysis of the deposited data

How the results depend on the processing

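No paired analysis was possible because each subunit has 1 list of peaks and no value per sample. Of 39 alternative counts, 23 stayed within 1.5 times the reported one. When only the wider 50% of each list was kept, SNF5 named 2 clock genes, 1 with a promoter peak, and the clock genes had 20 BRG1, 14 BRM and 2 SNF5 peaks. When each list was reduced to its 6489 widest peaks, BRG1 named 5 clock genes, 4 with a promoter peak, BRM had a promoter peak at 6, and 6 BRG1 and 9 BRM peaks were left. With a promoter defined as a peak over the RefSeq start, SNF5 had 2, against 8.99% of protein-coding genes with such a start. BRM peaks that met no BRG1 peak numbered 2 when the overlap had to reach 50% of the narrower peak, 13 when it had to be 50% of both, and 0 when a gap of up to 1 kb counted, so the BHLHE40 promoter peak counts as unshared only under rules that need an overlap. With 50% of both, 13 BRG1 peaks met BRM and 0 met SNF5. Shares over all genes and peaks are not given here for the reduced lists or the other overlap rules. These counts are therefore not to be read against the shares of the full lists. The depth behind the lists is unknown, so it cannot be said which missing peaks it accounts for.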
